A study of Mus musculus with 36 samples.

Results

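The 8 genes examined here encode enzymes of the families that remove methyl groups from lysine 9 of histone H3, and are not all such enzymes: Kdm4a, Kdm4b, Kdm4c, Kdm4d, Kdm3a, Kdm3b, Jmjd1c and Kdm1a. Their own H3K9me3 was read from the liver of mouse offspring, taking every bin whose annotated gene symbol is 1 of the 8. That gave 397 rows of 786789 in the 6 deposited tables, and all 8 genes had at least 1 bin in each table. The animals were the young of dams on a Western-style diet (maternal obesity, MO) or on control chow, and all groups were floxed littermate controls (Reg3g fl/+ or Reg3g fl/fl) of a colony kept on C57BL/6J. Livers were taken at 3 weeks, before weaning, or at 8 weeks, after 5 weeks on chow. There were 8 groups of 4 ChIP libraries: control females (CF), control males (CM), MO females (MF) and MO males (MM) at each age, beside 4 input libraries whose values were not used here. Each table averages 8 libraries, namely MO and control of 1 sex at 1 age, or controls of 1 sex at both ages. A table gives 1 average level for each bin as log2 CPM (read counts scaled to the size of the library), so no value for a single library, no replicate error and no read total for a library enter below, and every difference is a description without a test.

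H3K9me3 is a mark of compacted, silent chromatin that is laid down by methyltransferases and bound by HP1 proteins. The KDM4 enzymes are JmjC-domain oxygenases that act on trimethylated and dimethylated lysine 9. The KDM3 group, also JmjC enzymes, acts mainly on the lower methylation states, and Jmjd1c belongs to it. Kdm1a (LSD1) is a flavin-dependent amine oxidase that removes mono- and dimethyl groups and works in complexes with CoREST and histone deacetylases. The mark was measured in whole liver, so a lower level cannot be told apart from fewer cells that carry it. The tables hold no expression values, and the tissue label was not checked against marker genes.

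Stretches of 5 bins are shown to set start-site bins beside a bin inside a gene and a bin beyond one. The first 3 lie beside the start sites of Kdm3a, Kdm1a and Kdm4b, inside the gene but outside every annotated exon. The others are a bin in intron 12 of Kdm4c and the bin downstream of Kdm4c whose level differed most between the ages in females. Each is the plus strand of GRCm38.p6 from RefSeq, read 5′ to 3′, with CG dinucleotides in capitals.
Kdm3a chr6:71632687-71632837: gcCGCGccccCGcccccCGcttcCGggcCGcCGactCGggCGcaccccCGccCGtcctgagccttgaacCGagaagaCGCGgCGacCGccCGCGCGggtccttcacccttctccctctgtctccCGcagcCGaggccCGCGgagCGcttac
Kdm1a chr4:136602152-136602231: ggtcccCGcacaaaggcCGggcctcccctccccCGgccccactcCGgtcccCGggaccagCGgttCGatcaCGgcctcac
Kdm4b chr17:56326230-56326451: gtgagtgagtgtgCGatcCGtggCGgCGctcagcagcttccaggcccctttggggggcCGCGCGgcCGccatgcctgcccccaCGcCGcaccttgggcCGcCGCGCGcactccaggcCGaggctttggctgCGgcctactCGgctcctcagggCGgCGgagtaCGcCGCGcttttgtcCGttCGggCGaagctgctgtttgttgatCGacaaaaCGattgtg
Kdm4c intron 12 chr4:74339942-74340241: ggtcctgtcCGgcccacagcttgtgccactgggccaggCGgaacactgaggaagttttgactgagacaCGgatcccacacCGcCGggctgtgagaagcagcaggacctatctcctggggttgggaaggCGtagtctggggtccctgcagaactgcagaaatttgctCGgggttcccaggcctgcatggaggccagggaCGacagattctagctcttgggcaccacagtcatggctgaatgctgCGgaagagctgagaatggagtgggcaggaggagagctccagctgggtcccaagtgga
Kdm4c downstream chr4:74523774-74524073: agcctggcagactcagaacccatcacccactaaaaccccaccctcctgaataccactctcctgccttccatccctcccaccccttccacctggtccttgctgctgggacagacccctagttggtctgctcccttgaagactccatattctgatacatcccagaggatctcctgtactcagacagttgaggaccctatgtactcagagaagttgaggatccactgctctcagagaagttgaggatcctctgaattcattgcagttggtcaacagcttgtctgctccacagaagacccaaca
The printed stretches hold 24 CG in 151 bases at Kdm3a, 8 in 80 at Kdm1a and 27 in 222 at Kdm4b. The Kdm4c intron holds 9 in 300 bases. The downstream Kdm4c stretch holds 0 in 300 bases. Its bin is not typical of the downstream Kdm4c bins. It has 25.3% of bases masked as repeats and an observed-to-expected CG ratio of 0.0617. The medians of the downstream bins in females are 81.4% and 0.357. The observed-to-expected CG ratio of the printed stretches was 1.14 for Kdm3a, 0.762 for Kdm1a and 1.02 for Kdm4b against 0.335 for the Kdm4c intron. For the whole bins it was 0.982, 0.938 and 1.03 against 0.298. The median over all listed bins of a table lay between 0.256 and 0.308.

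The genes fell into different arrangements of the mark. Kdm4a and Kdm4b were covered along most of their length, Kdm4c had most of its bins in the gene-free stretch beyond its 3′ end, and the other genes had a few isolated peaks. Across the 3 tables of a sex, the 8 genes drew 70 peaks in females and 82 in males. Kdm4c had the most, 25 in females and 26 in males, followed by Kdm4b with 13 and 12 and Kdm4a with 9 and 12. Kdm3a had the fewest in females, 2, against 4 in males. Of the peaks, 61 of 70 in females overlapped a male peak, or 87.1%, and 62 of 82 in males overlapped a female peak, or 75.6%. Over all peaks these shares were 77.1% and 72.8%. All 3 tables of the sex listed 56 of the 70 female peaks and 54 of the 82 male ones, beside 61.3% and 56.4% of all peaks.

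**Figure D1:**
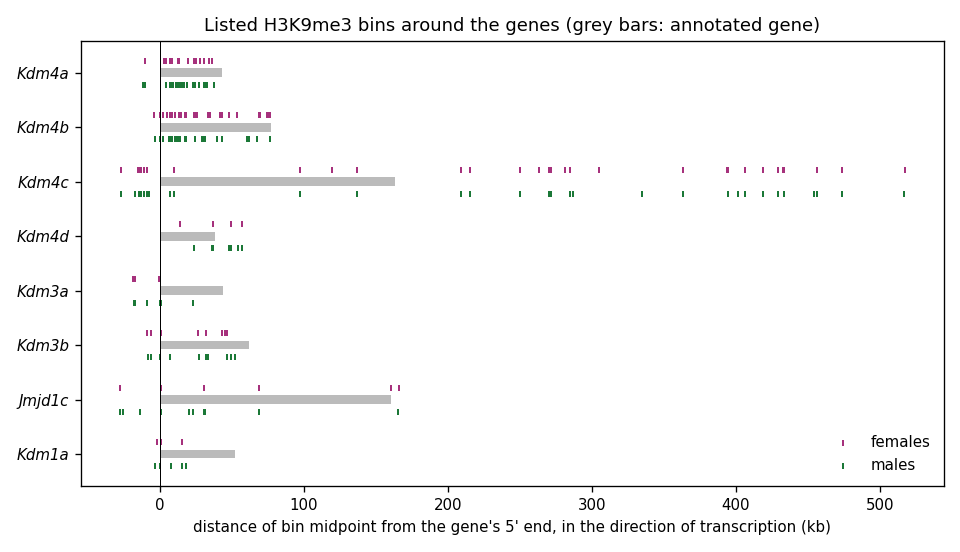
Midpoints of all listed bins (ticks, females above and males below each bar) by distance from the annotated 5′ end of the gene in kb, with the gene drawn as a grey bar. Kdm4a and Kdm4b are filled with bins over their length, whereas Kdm4c bins run on far beyond its 3′ end.

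Kdm4a and Kdm4b, whose enzymes, like that of Kdm4c, carry Tudor domains beside the JmjC domain, lay largely inside broad peaks. Peaks covered 56.4% of Kdm4a (chr4:118136957-118180043, minus strand, 43.1 kb) in females and 63.8% in males. Kdm4b (chr17:56326062-56402870, plus strand, 76.8 kb) was covered to 77.5% in females and 87.0% in males. These shares put Kdm4a at percentiles 90.8 and 92.9 and Kdm4b at percentiles 97.0 and 98.6 of the 9161 protein-coding genes that are 20 to 200 kb long in the annotation, whose median coverage was 6.58% in females and 6.90% in males. The longest peak in Kdm4b ran over 22.5 kb in females (chr17:56375059-56397530) and 16.8 kb in males (chr17:56358400-56375245). Of all peaks, 0.930% in females and 0.837% in males were longer than 10 kb. The longest peak in Kdm4a spanned 6.70 kb in females (chr4:118143910-118150610) and 4.57 kb in males (chr4:118158046-118162610).

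The remaining genes were covered to no more than 7.77%. Kdm3b reached 7.47% in females and 7.77% in males, close to the median gene. Kdm1a was covered to 2.66% and 5.30%, Jmjd1c to 1.72% and 4.01%, Kdm4d to 3.57% and 3.14%, and Kdm3a to 2.02% and 2.79%. Kdm4c was the least covered of the 8, with 0.899% of its 163 kb in females and 1.22% in males. The male value was above the female value for 7 of the 8 genes, Kdm4d being the exception, and peaks were merged separately for each sex. The median coverage of all genes was also higher in males.

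**Figure D2:**
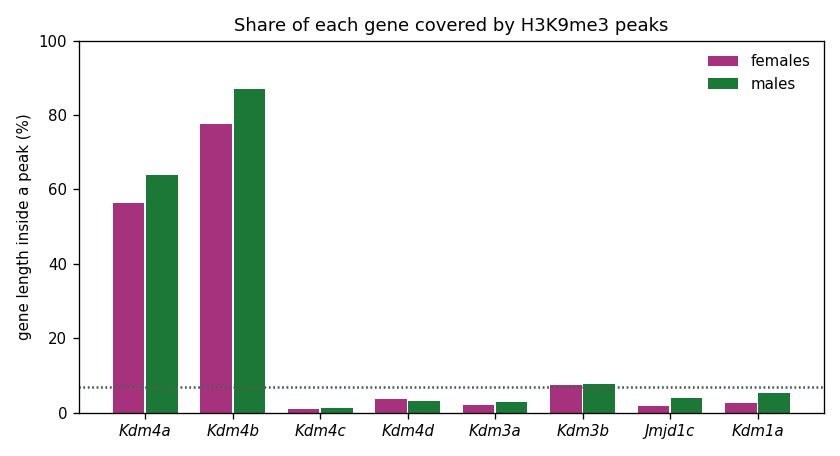
Percent of each annotated gene that lies inside a peak of the 3 tables of a sex (bars: females and males). Dotted lines mark the medians over protein-coding genes of 20 to 200 kb, 6.58% in females and 6.90% in males; Kdm4a and Kdm4b stand at 56.4% to 87.0%.

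Peaks lay at the 5′ end of 5 of the 8 genes in both sexes, within 1 kb of the annotated start: Kdm4b, Kdm3a, Kdm3b, Jmjd1c and Kdm1a. Over all 21938 protein-coding genes 64.2% in females and 65.4% in males had a peak there, so these genes did not stand out. The start sites of Kdm4a, Kdm4d and Kdm4c were free of peaks in both sexes. Kdm4c instead had a short peak of 534 bp in females and 746 bp in males about an alternative start inside the gene, with bins at chr4:74251844-74252344 in females and at chr4:74251888-74252388 in males. Males had a further bin at the end of that peak, chr4:74252388-74252633, and one at chr4:74249476-74249864.

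At the Jmjd1c gene (chr10:67096125-67256326) the 5′ end and an alternative start inside the gene were marked, and other annotated starts had no bin. The upstream start, which overlaps the divergent gene Reep3, was read from chr10:67096366-67096866 in females and chr10:67096294-67096794 in males. The alternative start, called the second start here, was read from chr10:67126640-67127140 in females and from chr10:67126608-67127108 and chr10:67127108-67127533 in males. In females the second start stood at log2 CPM 2.46 at 3 weeks, 3.09 at 8 weeks and 3.11 in controls of both ages. In males the upstream start stood at 1.96, 3.15 and 2.45. In each sex the table of 3 weeks also had the lowest median log2 CPM over all bins, at 2.41 in females and 2.03 in males, so these levels are not comparable between tables as they stand.

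At Kdm1a (chr4:136550540-136602723, minus strand) the bin at the start stood at 2.95 at 3 weeks, 3.18 at 8 weeks and 3.27 in controls in females (chr4:136602050-136602550). In males it stood at 2.56, 3.35 and 2.66 (chr4:136602152-136602652). These were above the table median of log2 CPM in all 6 tables. A second female bin lay upstream, at chr4:136604855-136605355, with 2.40, 2.57 and 2.59. At Kdm3a (chr6:71588972-71632990, minus strand) the start was low in females, with 2.18 at 3 weeks (chr6:71632601-71633101) and 2.32 at 8 weeks and 2.41 in controls (chr6:71633101-71633580). In males it stood at 2.06 at 3 weeks and 2.19 in controls (chr6:71632113-71632613) and at 2.61 at 8 weeks (chr6:71632613-71633113). A further male bin lay at an internal start, chr6:71609754-71610105, with 2.00 and 2.01 in the tables that list it.

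At Kdm4b the start was read from chr17:56326109-56326609 in females, at 2.83 at 8 weeks and 2.58 in controls, and from chr17:56325951-56326451 in males, at 1.92 at 3 weeks, 3.14 at 8 weeks and 2.31 in controls. The bins next to it, chr17:56328109-56328609 in females and chr17:56328043-56328543 in males, stood at 2.49 at 3 weeks in females and at 2.43, 2.82 and 2.44 in males. The male bin chr17:56322647-56323147, also counted as near this start, lies in the neighbouring gene Uhrf1. Bins that begin at 56368901, 56373901, 56394559 and 56395559 in females and at 56368900 and 56393444 in males lay within 3 kb of internal transcript starts of Kdm4b, with log2 CPM of 2.15 to 2.46 and 1.88 to 2.47. Internal starts of Kdm4a likewise had bins beginning at 118143910, 118145910, 118148910, 118159986 and 118176812 in females and at 118147046, 118147546, 118149397, 118161046 and 118163309 in males. Their levels ran from 2.22 to 2.66 in females and from 1.73 to 2.65 in males.

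Kdm3b (chr18:34777047-34838660) carried its start-site bins at chr18:34777286-34777786 in females, with log2 CPM 2.48, 2.76 and 2.87 at 3 weeks, 8 weeks and in controls. In males they lay at chr18:34776684-34777184, with 2.35 at 3 weeks and 2.53 in controls, and at chr18:34777184-34777684, with 2.98 at 8 weeks. Internal starts had bins that begin at 34823347 in females and at 34823607, 34826138 and 34828682 in males, with female levels of 2.84 to 3.17 and male levels of 1.71 to 2.38. The 2 most upstream bins in females, labelled as 3′ UTR, lie in the neighbouring gene Fam53c and outside Kdm3b.

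The symbol of a bin is that of the nearest start site, and many bins named for a gene lie outside it. In females 24 of the 30 Kdm4c bins and in males 26 of 32 lay in no annotated gene. Downstream of Kdm4c, 20 female bins ran over 308 kb from chr4:74451611 to 74759869, as far as 354 kb past its 3′ end, and 19 male bins ran over the same stretch. The next protein-coding gene, Dmac1, begins 871 kb beyond Kdm4c. Peaks shorter than 1 kb gave 13 of these bins in females, and 15 in males. They were also rich in repeats, with a median of 81.4% of bases masked in females and 83.0% in males. Over all distal intergenic bins of the tables that median lay between 25.1% and 36.9%. The 6 female and 8 male bins upstream of Kdm4c, by contrast, had 12.6% and 6.99% masked, and longer peaks with medians of 2563 and 1980 bp. Reads from repeats can map to several places, and how they were counted was not tested.

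The downstream Kdm4c bins were also higher than the upstream ones. Their median CPM per kb of bin in females was 15.8 at 3 weeks, 19.8 at 8 weeks and 18.4 in controls, against 10.8, 10.7 and 11.4 upstream of the gene. In males the downstream medians were 13.0, 21.0 and 13.5, and the upstream medians 7.55, 11.0 and 7.93. The few bins inside Kdm4c lay between, or close to the downstream ones, at 16.1, 19.2 and 18.3 in females and 11.8, 16.8 and 12.4 in males. The intron 12 bin printed above (chr4:74339886-74340298) stood at log2 CPM 2.83, 2.88 and 2.92.

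CPM per kb served to compare bins of unlike length, and it favours very short bins, as reads reach past their edges. The highest bin of Kdm4c lay downstream in both sexes, at chr4:74451611-74452111 in females with 27.1 at 8 weeks and at chr4:74492121-74492404 in males with 31.5 at 8 weeks. Kdm4d reached 30.0 in a 227-bp male bin of its intron (chr9:14476406-14476632) and 18.6 in a female intron bin (chr9:14486105-14486447). Jmjd1c reached 28.4 in a male bin of 115 bp that lies in Reep3 (chr10:67068367-67068481) and 17.2 at its second start in females. Kdm3b reached 25.8 in an exon 12 bin of 227 bp in females (chr18:34819881-34820107) and 19.8 in males (chr18:34826138-34826316). Kdm4a reached 22.4 in both sexes, in exon 3 in females (chr4:118175357-118175620) and upstream of the gene in males (chr4:118191875-118192070). Kdm1a reached 22.8 in a short intron 2 bin in females (chr4:136587500-136587715) and 20.5 in males at a bin that overlaps Gm12987 (chr4:136584144-136584529). Kdm4b stayed at or below 17.5, reached at its start in males, and 17.2 in intron 1 in females (chr17:56338809-56339178). Kdm3a was lowest, at 14.6 in males in Gm6063 (chr6:71641995-71642226) and 12.9 in females (chr6:71651214-71651635).

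By the median of its bins, Kdm4c was the highest of the KDM4 genes in all 6 tables, from 12.4 CPM per kb in males at 3 weeks to 18.6 in females at 8 weeks. Its median bin stood between percentiles 66.7 and 76.2 of all bins of a table. Kdm4b was the lowest of the 4 in every table but that of females at 3 weeks, where Kdm4a was lower. Its medians ran from 7.28 in males at 3 weeks to 11.9 in control females, and its median bin lay between percentiles 8.13 and 40.8. The gene with the widest cover had listed bins of low level. The gene with the least cover had high bins outside the gene and, in females, inside it as well. Each peak is read from 1 bin of a table, also the 22.5-kb peak of Kdm4b, and CPM per kb favours very short bins. These values are therefore not levels of whole peaks. Kdm4a lay between, at 8.73 to 12.9, and Kdm4d at 9.14 to 18.0. Kdm3a had medians of 9.02 to 12.0, Jmjd1c of 9.65 to 13.5, Kdm3b of 11.7 to 14.6 and Kdm1a of 10.3 to 19.2. The ranges of these last genes overlap, and they rest on 1 to 8 bins a table, so no order is read among them. All 397 bins together were spread about the table median, with 189 of them above it. The median member bin stood between percentiles 38.7 and 56.8.

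**Figure D3:**
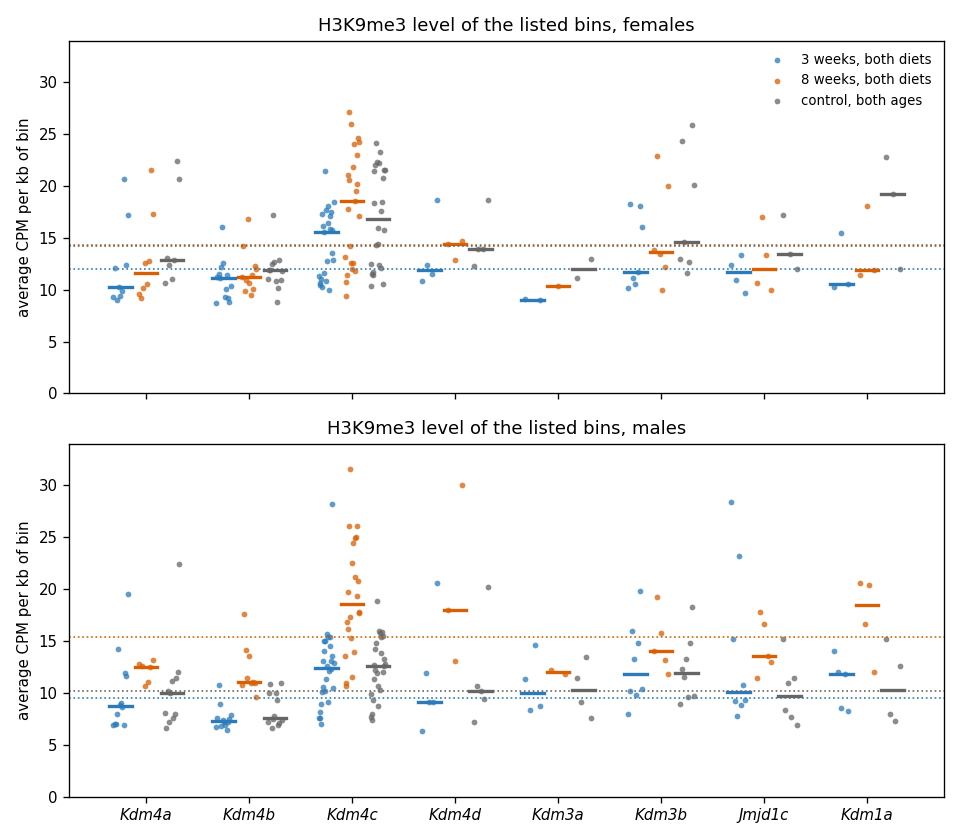
Average CPM per kb of every listed bin (points) by gene, in the 3 tables of females (top) and males (bottom), with short lines at the median of a gene and dotted lines at the median of all bins of that table. Kdm4c bins reach above, and most Kdm4b bins lie below, the dotted line of their table.

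Start-site bins differed among themselves in base composition. Bins within 1 kb of the 5′ ends of Kdm4b, Kdm3a, Kdm3b, Jmjd1c and Kdm1a had an observed-to-expected CG ratio of 0.730 to 1.05 and a GC content of 61.3% to 79.4%. The second Jmjd1c start had ratios of 1.05 to 1.08 and the alternative Kdm4c start 0.808 to 0.853. Bins within 1 kb of internal starts of Kdm4a, Kdm4b, Kdm3a and Kdm3b were at 0.192 to 0.321. The median over gene-body bins of the 8 genes lay between 0.198 and 0.295. Distal bins of the 8 genes were masked as repeats to a median of 72.1% to 80.2%, and most of them belong to Kdm4c. The median of the promoter bins of the 8 genes lay between 4.70% and 10.2% by table.

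**Figure D4:**
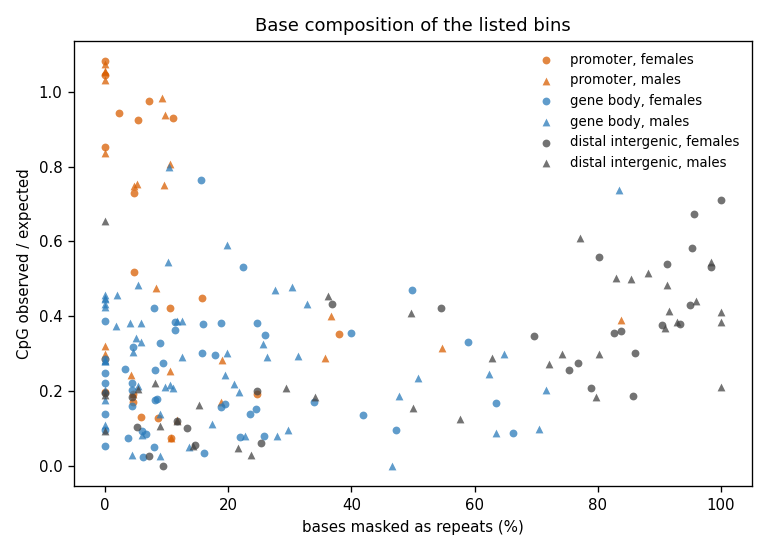
CG observed-to-expected ratio against the percent of bases masked as repeats for each listed bin (circles, females; triangles, males), coloured by annotation class. Promoter bins with a ratio near 1 hold few masked bases, and distal bins are mostly at high masked shares.

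Age was read from the tables of 3 and 8 weeks, which share no library and each hold both diets. The tables were normalised separately, so the median over all shared bins, 0.23 in females and 0.63 in males on the log2 scale, was subtracted. A bin was called when it then lay 0.5 or more from 0. In females 40 bins of 7 genes could be compared, and in males 31 bins of 7 genes. Kdm3a had none in either sex: its peaks had either no bin listed at 8 weeks or another bin than at 3 weeks. In females 1 bin was higher at 8 weeks, where 4.57% of all 76657 bins were, and 1 was lower, where 2.99% were. In males 2 were higher, against 5.48% of all 69096 bins, and 1 was lower, against 3.49%. These shares are near the background and single out no gene. The median over the bins of the 8 genes was 0.03 in females and 0.02 in males.

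In females the higher bin was the first one downstream of Kdm4c, chr4:74451611-74452111, at log2 CPM 2.96 at 3 weeks and 3.76 at 8 weeks, a difference of 0.58 after the median was subtracted. Its male counterpart, chr4:74451626-74452126, stood at 2.81 and 3.71, or 0.26. The lower bin was chr4:74523685-74524162, printed above, at 3.08 at 3 weeks and 2.52 at 8 weeks, or -0.78, the largest difference in females. Only 0.145% of all female bins lay as low. No male peak was listed there. Of the downstream Kdm4c bins, 11 of the 14 compared in females and 11 of 14 in males were above 0, with medians of 0.12 and 0.13. Within classes of GC content, 9 of 14 and 12 of 14 were above 0. The bins of a sex come from the same libraries and are not replicates. Whether other distal or repeat-rich bins behaved alike was not tested.

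In males the higher bins were both at start sites. The Kdm4b start, chr17:56325951-56326451, went from 1.92 to 3.14, or 0.59 after the median was subtracted. The next male Kdm4b bin, chr17:56328043-56328543, was at -0.24. In females the 4 Kdm4b bins ran from -0.38 to 0.14, with 1 above 0, and the peak over the start, listed with different bins, was at 0.11. The upstream Jmjd1c start, chr10:67096294-67096794, went from 1.96 to 3.15, or 0.56. In females the second Jmjd1c start was at 0.41. The other Jmjd1c start of each sex was listed with different bins of its peak at the 2 ages. As CPM per kb it went from 12.4 to 11.9 in females, or -0.29 relative to all peaks, and from 10.7 to 16.6 in males, or -0.03. Over all bins, high GC content went with more bins called higher, but not every GC-rich start here was high. The Kdm1a start, with 75.8% GC in females and 79.4% in males, was at -0.003 and 0.15. The female Kdm3b start, with 73.3% GC, was at 0.04. Among the 10% of bins with the highest GC content 8.39% in females and 13.8% in males were called higher, and 0.225% and 0.145% lower. Set against the median of bins of like GC content, cut into 10 classes after the data were seen, the Kdm4b start was at 0.36, the Jmjd1c start at 0.33 and the downstream Kdm4c bin at 0.48, all under 0.5. The lower bin in males lay in exon 7 of Kdm3b (chr18:34803656-34804095). It stood at 2.54 at 3 weeks and 2.53 at 8 weeks while the median bin was higher at 8 weeks, which gave -0.65, the largest difference in males. The female bin over the same exon, chr18:34803444-34803944, was at -0.31. The other 4 female bins of Kdm3b ran from 0.04 to 0.22. Both exon 7 bins remained below 0 within their class of GC content, at -0.63 and -0.24.

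Kdm4a bins were mostly below 0, at -0.22 to 0.08 in 4 female bins and -0.45 to -0.12 in 3 male bins. Kdm1a bins were near 0, at -0.07 to 0.00 in 3 female and -0.16 to 0.15 in 4 male bins. Kdm4d bins lay at -0.17 to 0.18 in 3 female bins and at -0.09 in the 1 male bin.

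**Figure D5:**
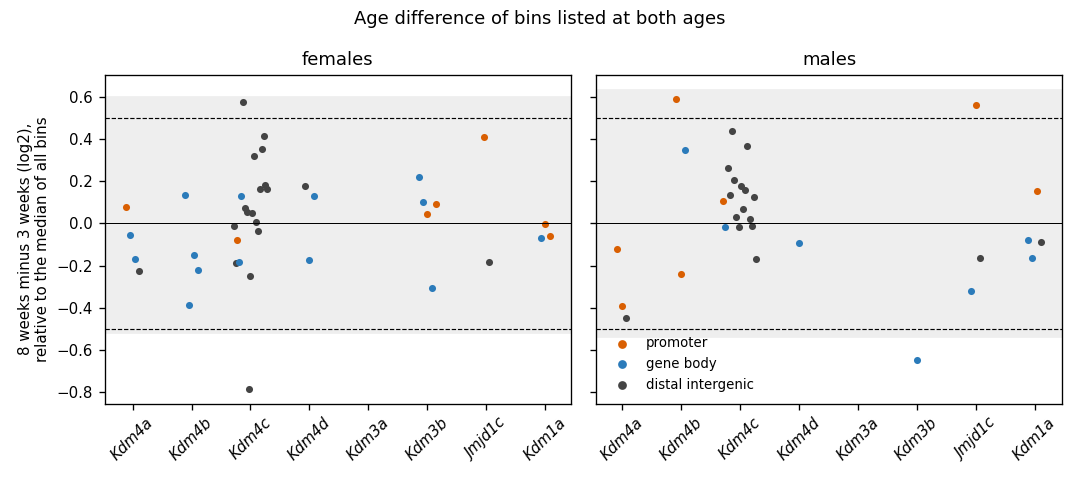
Log2 difference between 8 and 3 weeks, relative to the median of all bins, for each bin listed at both ages, by gene and annotation class. Dashed lines mark 0.5 and -0.5, and the grey band spans 95% of all bins; 2 female and 3 male bins lie past a dashed line.

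Between the sexes, a female and a male bin of 1 age were compared where they overlapped by 50% of each. The median over all pairs, 0.32 at 3 weeks and -0.09 at 8 weeks, was subtracted. At 3 weeks 23 pairs ran from -0.47 to 0.51. A bin in intron 1 of Kdm4b (chr17:56335962-56336462 in females) was higher in females, at 2.61 against 1.78. That is 1 pair where 2.72% of all 56658 pairs were called, and it was not among the pairs that overlapped by 80%. None, 0 of 23, were lower, where 2.19% of all pairs were. At 8 weeks 26 pairs ran from -0.69 to 0.44. The alternative start of Kdm4c was lower in females, at 2.52 (chr4:74251844-74252344) against 3.30 in males. It was the 1 pair called lower, where 3.00% of all 49276 were, and 0 were called higher, where 2.87% were. The start of Kdm1a stood at 0.07 at 3 weeks and -0.08 at 8 weeks. The highest pair at 8 weeks, at 0.44, was the farthest bin downstream of Kdm4c (chr4:74759403-74759869 in females), and downstream pairs lay on both sides of 0. The median over all pairs of Kdm4c, upstream and in the gene included, was -0.02 at 3 weeks and 0.02 at 8 weeks.

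The effect of maternal diet could be reached only indirectly. The table of controls at both ages was set against the sum of the tables of 3 and 8 weeks, which gives the average MO level over both ages. The median over all bins, -0.24 in females and 0.44 in males on the log2 scale, was subtracted. Control libraries enter all 3 tables, and their levels were used as deposited. The 3 tables were normalised separately and are not on a common scale, as these medians show, so the value is approximate. Of 36 female bins 0 were called higher, against 1.54% of all 66676 bins, and 0 lower, against 2.93%. Of 27 male bins 0 were called higher, against 0.675% of all 60699 bins, and 0 lower, against 0.835%. The lowest in females was the second Jmjd1c start at -0.44, with the bin downstream of Jmjd1c (chr10:67261793-67262293) at -0.41. The highest was a bin downstream of Kdm4d (chr9:14443567-14443981) at 0.32. In males the exon 7 bin of Kdm3b was lowest at -0.46, and the first downstream Kdm4c bin was highest at 0.33. The downstream Kdm4c bins were above 0 in 10 of 13 in females and in 10 of 14 in males, with medians of 0.15 and 0.12. The tables of 3 and 8 weeks also gave the age difference, and a higher level at 8 weeks raises both values. These counts and the low exon 7 bin of Kdm3b in males are therefore not separate from the age difference. Whether other distal or repeat-rich bins behaved alike was not tested.

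Lists of other genes of the pathway were read in the same way. Of the other H3K9 erasers, Hr, Phf2, Phf8 and Kdm7a, all 4 had bins in females and 3 in males. In the age difference 3 of their 21 female bins were higher, all of them with the symbol Phf8, and 0 lower. In males 0 of 12 bins were called. A list of 15 further genes of the JmjC and LSD families includes demethylases of other lysines such as Kdm1b, which acts mainly on lysine 4, but also Jarid2, which lacks demethylase activity, and Jmjd6, Riox1 and Riox2, known as hydroxylases. Of its bins, 1 of 40 female bins and 4 of 37 male bins were higher and 0 lower in either sex. The female bin and 3 of the male bins carry the symbol Kdm6a, and the other male bin carries the symbol Kdm5d. Of the 6 H3K9 methyltransferases, 4 had bins in each sex. With the symbol Suv39h1, 2 of the 9 female bins of this list were higher. In males 2 of 6 were lower, with the symbols Setdb1 and Setdb2. HP1 proteins and co-repressors had 1 higher (Cbx5) and 1 lower (Atf7ip) of 14 female bins and 1 lower (Atf7ip) of 11 male bins. Partners of Kdm1a had 1 higher (Hdac2) and 1 lower (Hdac1) of 22 female bins and 1 higher (Rcor3) of 20 male bins. A symbol is that of the nearest start site, and several of the called bins lie outside the gene. The Setdb1, Rcor3 and Kdm5d bins, the male Atf7ip bin and the female Kdm6a bin are distal intergenic. So are the Phf8 bins at 30827 and 59090 bp from the start site. The Hdac2 bin lies at -194465 bp and the Setdb2 bin at -4542 bp. Phf8, Kdm6a and Suv39h1 are on the X chromosome, on which 25.1% of all female and 23.5% of all male bins were called higher, beside 3.23% and 5.37% of autosomal bins. Autosomal bins were called lower in 3.09% of cases in females and 3.51% in males. All 8 demethylase genes described above are autosomal.

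Over the 6 table medians of log2 CPM, the genes nearest to Kdm4c among 17983 genes with bins in every table were Khdrbs2, Ttc21b and Gm16731, at Euclidean distances of 0.08, 0.10 and 0.11. Kdm4c stood at 2.67, 2.84 and 2.84 in females at 3 weeks, at 8 weeks and in controls, and at 2.25, 3.13 and 2.42 in males. Khdrbs2 stood at 2.66, 2.85 and 2.92 and at 2.26, 3.12 and 2.42. Khdrbs2 had 120 bins over the tables and Kdm4c 143, whereas Ttc21b had 23 and Gm16731 had 6.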

How the data were processed

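H3K9me3 ChIP-seq of mouse liver was deposited as 6 tables of peak bins of at most about 500 bp. As the study's methods state, the authors aligned reads with BWA to mm10 (GRCm38), called broad peaks with MACS2, kept peaks found in 3 replicates, merged them per sex, cut longer peaks into bins, counted reads with featureCounts, compared groups with edgeR and annotated bins with ChIPseeker. The deposited log2 values are the authors' average log2 CPM over the 8 libraries of a table. Columns with the authors' fold changes, p-values and false discovery rates were not used. Each table lists 1 bin per peak, and how that bin was chosen is not given in the sources used here. Averages were turned into CPM per kb. Bins with equal coordinates were compared between ages, overlapping bins between sexes, and an MO average was derived from 3 tables. The median over all bins was subtracted, and 0.5 on the log2 scale was the call threshold. Peak coordinates and gene models of GENCODE M21 gave coverage, and GRCm38.p6 gave base composition and masked shares. The calculation of differences was run on simulated tables with planted changes and less noise than the real spread. For MO, recovery was required only with the tables brought to a common median, which is not the form reported. Alternatives were other centrings, thresholds and matchings. Python 3 with pandas was used. The genes, lists and rules were chosen with earlier results of these data known. Named bins were those within 3 kb of a start site, the highest of each gene, and those called or most different between ages. The methods give only an approximate number of reads per library, and the tables hold no total for a library, so the precision of a value was not estimated.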

Additional observations from a re-analysis of the deposited data

How the results depend on the processing

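Of 397 rows with a symbol of the 8 genes, 233 were counted when bins inside the genes or within 3 kb before their start were taken whatever their symbol, and 251 without distal intergenic bins. Of 189 bins above the table median of CPM per kb, 107 were counted when only bins above the median log2 CPM were ranked. In the age difference, without the median subtracted 5 female bins were higher, and 23 male bins were higher and 0 lower. At a threshold of 0.25 the counts were 5 higher and 3 lower in females and 6 higher and 4 lower in males, and at a threshold of 1 they were 0 in both sexes and directions. With bins above the median in both tables, 0 female bins were lower, and 0 male bins were higher or lower. Centred within 10 classes of GC content, chosen after seeing the data, 0 were higher in either sex. With bins of the same peak, also chosen after seeing the data, 2 were lower in each sex, of 57 peaks in females and 54 in males, where 4.10% and 4.74% of all peaks were lower. For the sexes at 3 weeks, 0 pairs were higher at 80% overlap and 3 without the median subtracted. For maternal diet without the median subtracted, 5 female bins were lower and 12 male bins higher. The other alternatives gave counts within 1.5 times those reported. The cause of these changes was not tested. No paired analysis was possible because the tables hold averages over libraries and no test was made. Leaving out replicates was not possible for the same reason.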

Other observations

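The tables list different bins of the same broad peak, and this can look like a change. In the male peak chr4:74527321-74529796, downstream of Kdm4c, the bin listed at 3 weeks stood at 15.7 CPM per kb and the one listed at 8 weeks at 11.5, or -1.11 on the log2 scale after the median was subtracted, the largest shift of any peak of the 8 genes by that measure. In the Fam53c part of the Kdm3b locus, the male peak chr18:34770484-34771353 went from 7.93 to 19.3 CPM per kb, or 0.62, with different bins as well. In females the peak chr4:118151753-118154151 in Kdm4a went from 12.0 to 9.19, or -0.62, again with different bins. Some bins of Kdm4d lie in the exon of Kdm4dl, a related sequence annotated as an unprocessed pseudogene, and reads shared by similar copies could be counted at either.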
